A study of Rattus norvegicus with 287 samples.

Results

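Liver RNA of obese Zucker diabetic fatty rats (Obese ZDF) was set against RNA of 6 other tissues of the same group of rats. The liver libraries were the 5 titled with the group Control 7-weeks Obese ZDF and the tissue Liver, numbered 1 to 5. The comparison libraries were the 5 each of Muscle, Kidney, Pancreas, Intestine, Brain and Blood of that group, so 35 of the 287 libraries of the series were used. The group's Adipose libraries, numbered 1, 2, 4 and 5, were not compared, so no fold below sets liver against adipose tissue. All 35 libraries came from male rats of 1 strain at 1 time point, and no source used here gives their age. ZDF rats lack a working leptin receptor, and obese males become diabetic. Per the labels' protocol, rats were anesthetized with isoflurane and received either focused ultrasound aimed at the porta hepatis, where vessels and nerves enter the liver, or a sham with no energy. The group used here is labelled as control. The replicate number in the titles was read as the animal, and the fit across tissues held it as a block. The brain samples were hypothalamus per the series' design text.

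The liver is made up mostly of hepatocytes, which secrete most plasma proteins into the blood, make bile acids and lipoproteins, release glucose in fasting, turn ammonia into urea and oxidize drugs. Kupffer cells, the resident macrophages, sinusoidal endothelial cells, vitamin A storing stellate cells and bile duct cells (cholangiocytes) make up the remainder. The transcription factors HNF1, HNF4, C/EBP and FOXA are known for driving hepatocyte genes together, while none of them is made by hepatocytes alone.

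Liver libraries held 21726174 to 43088790 counts (median 35004217), brain libraries 10057294 to 14282477, intestine 12653580 to 17075804, kidney 10366886 to 16414362, muscle 12039643 to 15970396, pancreas 9338963 to 11712076 and blood 19975208 to 32213868. Levels below are CPM (counts scaled to a common library total) corrected by the TMM factor of each library, and they are not divided by transcript length. Hemoglobin RNA filled most of each blood library, whose TMM factors were 0.0823 to 0.174, so scaled blood levels run above plain CPM. Pancreas libraries were made with a total RNA kit and the others with an mRNA kit, so kit and tissue cannot be told apart there. Gene ENSRNOG00000030106 set rats apart: it stood at 3.83 CPM or more in every tissue of rats 3 and 4 and at 1.27 CPM or less in every tissue of rats 1 and 2. In the libraries numbered 5 it was at 0.325 CPM in liver and at most 0.738 CPM in brain, kidney, muscle and pancreas, but at 7.86 CPM in blood and 47.7 CPM in intestine. Fabp6, a bile acid binding protein of the ileum, stood at 5687 CPM in intestine 1, while intestines 2 to 5 had between 0.79 and 4.25 CPM. Of the 498 liver genes described next, 494 were also called without blood 5 and intestine 5, and 490 without intestine 1.

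Of 16514 genes tested, 498 were higher in liver than in each of the 6 other tissues by at least 4-fold, with adjusted p under 0.05 in all 6 contrasts (edgeR quasi-likelihood test, Benjamini-Hochberg adjustment over all genes). These liver-enriched genes were 3.02% of the genes tested. Another 161 genes (0.975%) were lower than in each other tissue by the same rule, and 497 were at least 4-fold higher than in 5 of the 6. At any fold, 1170 genes (7.08%) were higher than in all 6 and 422 (2.56%) lower. Single contrasts called most genes. Liver differed from muscle in 64.4% of genes (32.6% higher in liver, 31.8% lower, 16.6% higher by 4-fold) and from kidney in 54.2% (23.2%, 31% and 8.11% in the same order). It differed from pancreas in 59.9% (30.3%, 29.7%, 12.5%), from intestine in 63.3% (27.6%, 35.6%, 10.3%), from brain in 72.2% (32.5%, 39.7%, 15%) and from blood in 63% (37%, 26%, 21.8%). By this count kidney had the fewest genes at a 4-fold lower level than liver, and blood the most. By the same rule applied to the other tissues, muscle had 514 enriched genes, intestine 497, pancreas 397 and kidney 281, while brain had 1514 and blood 783.

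The liver-enriched genes took 48.5% to 58.1% (median 52.9%) of the counts of the 5 liver libraries. They took 1.26% to 2.16% in kidney, 1.19% to 1.6% in intestine, 0.981% to 1.25% in brain, 0.341% to 0.492% in muscle, 0.147% to 0.201% in pancreas and 0.02% to 0.037% in blood. In 485 of the 498, every liver library was above every library of the other tissues, which held for 993 (6.01%) of all genes tested. The median of the smallest of the 6 log2 fold changes was 4.17 (4.10 with genes at 0 in a tissue put at their lower bound), against -1.85 over all genes tested. The genes were picked by a log2 fold change of at least 2 in these same libraries. The share of counts, the separation and this median follow in part from that rule and are descriptions only. The tissue nearest to liver, the one with the smallest fold change, was kidney for 160 of them, intestine for 103, pancreas for 86, brain for 63, blood for 44 and muscle for 42. Just inside the threshold, 42 genes had a smallest log2 fold change under 2.2.

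Promoter sequence is shown for the first 5 of the 10 genes with the largest fold over their nearest tissue that have a RefSeq entry, to place known hepatocyte motifs next to the genes. Each window is the 250 bases before the annotated start, 5′ to 3′ on the gene's strand, from RefSeq on GRCr8, and capitals mark matches on either strand to GTTAAT (part of the HNF1 site), CAAAGTNCA (HNF4), TTGCNNAA (C/EBP) or TGTTTAC (FOXA). The windows are chr1:247966144-247966393 (plus strand) for Cyp2c7, chrX:143388392-143388641 (plus) for F9, chr1:90780242-90780491 (plus) for Cyp2b3, chr19:54856354-54856603 (plus) for Tat and chr14:17906980-17907229 (minus) for Alb.
Cyp2c7: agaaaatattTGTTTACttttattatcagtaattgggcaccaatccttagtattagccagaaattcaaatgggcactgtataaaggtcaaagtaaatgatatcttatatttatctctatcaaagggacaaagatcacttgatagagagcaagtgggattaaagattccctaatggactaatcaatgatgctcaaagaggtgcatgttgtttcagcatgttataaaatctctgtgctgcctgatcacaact
F9: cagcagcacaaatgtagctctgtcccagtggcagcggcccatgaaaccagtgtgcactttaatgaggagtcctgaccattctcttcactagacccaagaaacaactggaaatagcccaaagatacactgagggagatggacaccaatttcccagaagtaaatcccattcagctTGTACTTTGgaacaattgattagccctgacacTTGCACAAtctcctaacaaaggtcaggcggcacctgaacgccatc
Cyp2b3: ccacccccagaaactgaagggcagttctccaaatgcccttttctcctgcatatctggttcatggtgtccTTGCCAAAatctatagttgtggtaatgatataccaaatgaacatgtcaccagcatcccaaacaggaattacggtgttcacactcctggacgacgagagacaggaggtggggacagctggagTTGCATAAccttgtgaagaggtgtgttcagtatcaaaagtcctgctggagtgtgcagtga
Tat: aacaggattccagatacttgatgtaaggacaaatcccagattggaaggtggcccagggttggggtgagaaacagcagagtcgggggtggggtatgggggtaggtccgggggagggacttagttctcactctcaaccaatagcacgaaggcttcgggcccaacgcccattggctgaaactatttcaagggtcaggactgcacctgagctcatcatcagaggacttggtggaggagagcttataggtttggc
Alb: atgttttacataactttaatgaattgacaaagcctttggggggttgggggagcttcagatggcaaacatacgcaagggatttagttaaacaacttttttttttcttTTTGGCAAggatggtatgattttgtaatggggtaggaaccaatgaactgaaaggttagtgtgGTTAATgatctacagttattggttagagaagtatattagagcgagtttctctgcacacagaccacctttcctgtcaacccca

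The Alb window held the HNF1 letters 82 to 77 bases before the start and a C/EBP match on the opposite strand at 144 to 137. The F9 window held an HNF4 match on the opposite strand at 77 to 69 and a C/EBP match at 45 to 38, and the Cyp2b3 window C/EBP matches at 181 to 174 and 60 to 53. The Cyp2c7 window held a FOXA match at 240 to 234, and the Tat window held none of the 4. The letters are common: 31.5% of the 346 windows of liver-enriched genes held at least 1 of the 4 motifs, against 14.6% of 11607 windows of genes tested and 18.4% of all 27457 windows. Taken one at a time, HNF1 was in 11.3%, 4.28% and 6.52% of these 3 sets, HNF4 in 4.05%, 1.13% and 1.05%, C/EBP in 18.8%, 8.03% and 9.23%, and FOXA in 4.62%, 2.2% and 3.25%. A match is a description of the letters and not of binding.

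Albumin (Alb, ENSRNOG00000002911), the main plasma protein and the marker of this tissue, stood at 103432, 198902, 91900, 117596 and 113454 scaled CPM in livers 1 to 5. Its mean elsewhere was 6.00 in pancreas, 2.44 in brain, 1.79 in blood, 0.372 in muscle, 0.242 in kidney and 0.0714 in intestine. Liver 2 was the highest, and no library of another tissue came near. The log2 fold change over pancreas, the nearest tissue, was 14.40 ± 0.98 (SE, adjusted p = 8.91e-14), and Alb alone took 10.2% to 18.0% of liver counts. The other 4 hepatocyte markers looked at (Ttr, Apoa2, Fga and Serpinc1) were also enriched.

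**Figure D1:**
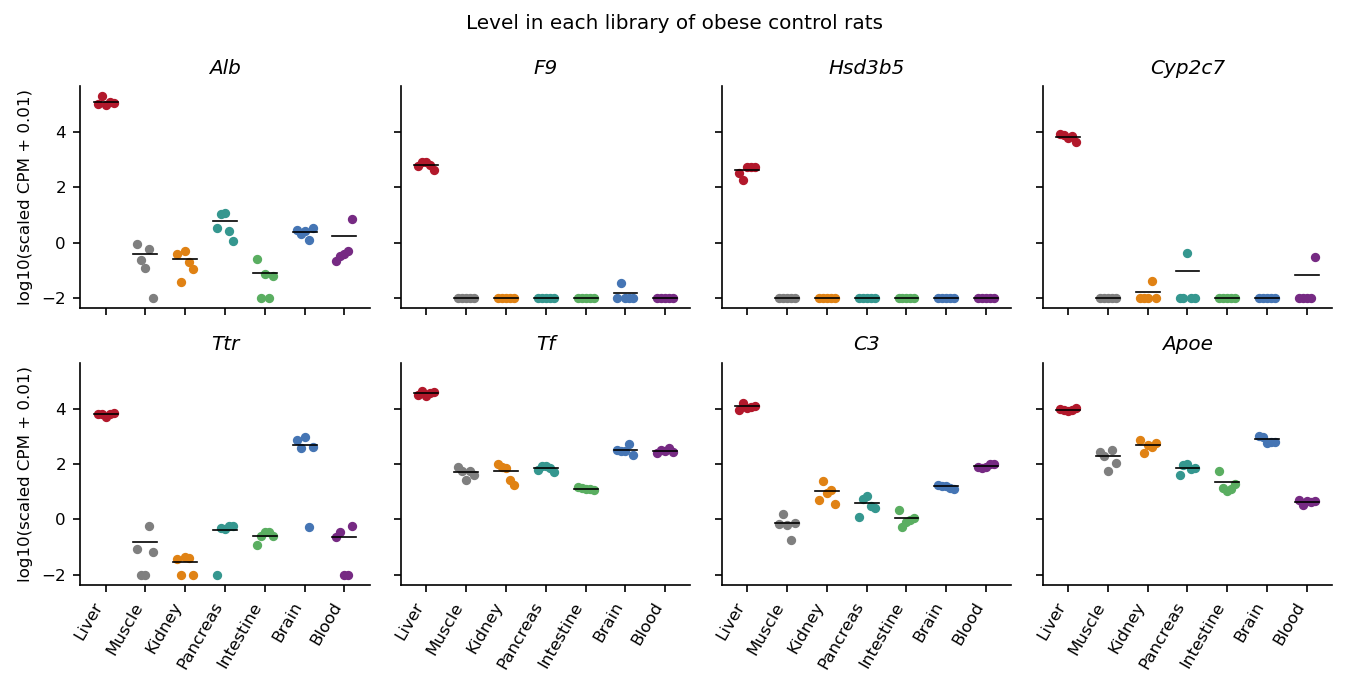
Level of 8 genes (panels) in each of 35 libraries, as log10 of scaled CPM plus 0.01, by tissue on the x axis, 5 points a tissue with a line at the mean. Every liver point lies above every other point of its panel, and Hsd3b5 is at 0 in all 30 other libraries. Ttr and Apoe come nearest to liver in brain, and Tf in brain and blood.

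Among the 10 enriched genes with the largest fitted fold over the nearest tissue (of the 423 with a usable symbol and at least 5 CPM in liver), several were all but absent elsewhere. Hsd3b5 (ENSRNOG00000019417), a steroid 3-ketoreductase of male rat liver, was at 340, 179, 535, 527 and 531 scaled CPM in livers 1 to 5. It had 79869 counts in these 5 libraries and 0 in the other 30. Set against a floor of 3 counts over the 5 libraries of a tissue, liver was at least 11.26 higher on the log2 scale than every other tissue (largest adjusted p of the 6 = 4.92e-07). Liver 2 was the lowest of the 5.

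Clotting factor IX (F9, ENSRNOG00000003430) was at 617, 827, 856, 636 and 414 scaled CPM, with 117899 counts in liver and 1 in the other 30 libraries. Cyp2b3 (ENSRNOG00000033164), a cytochrome P450, was at 609, 578, 678, 630 and 737 scaled CPM, also with 1 count elsewhere. Liver 5 was the lowest for F9 and the highest for Cyp2b3, and the lower bounds on the log2 scale were 11.93 and 11.87. Cyp2c7 (ENSRNOG00000021405), a P450 that oxidizes retinoids, was at 8505, 7983, 6109, 7386 and 4422 scaled CPM, highest in liver 1 and lowest in liver 5. It had 2 counts in pancreas, its nearest tissue, for a log2 ratio of 16.10 with a 95% counting interval of 14.24 to 19.14.

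Tat (ENSRNOG00000016348), the glucocorticoid-responsive enzyme that starts tyrosine breakdown, spread widely, at 603, 236, 423, 1743 and 2044 scaled CPM. Livers 4 and 5 were above the others, and 6 counts were seen in all 30 other libraries (lower bound 12.52). Serpina3c was at 2831, 3187, 2006, 3028 and 3396 scaled CPM, with 15 counts elsewhere and a log2 fold change of 15.49 ± 0.53 over kidney (adjusted p = 1.03e-16). Sult2a2, a sulfotransferase of bile acids and steroids, was at 1065, 947, 353, 641 and 275 scaled CPM and at least 11.90 higher on the log2 scale. Cyp2c13, another P450, stayed between 1158 and 1941 scaled CPM, and Rup2 between 1896 and 3117. For genes with so few counts elsewhere, the fitted fold and so the order within these 10 depend on the prior count of the fit.

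Of these 423, the 10 with the most counts in liver were Alb, Tf, C3, Serpina1, Apoe, Gc, Hp, Cyp2c7, Ttr and Hpx, and 9 of them code for plasma proteins. Transferrin (Tf), the iron carrier, averaged 36410 ± 5513 scaled CPM (SD, n = 5) in liver and 328 in brain, its nearest tissue, where the log2 fold change was 6.83 ± 0.40 (adjusted p = 1e-15). Transthyretin (Ttr), which carries thyroid hormone and retinol binding protein, was at 6266, 6705, 5161, 6588 and 6733 scaled CPM in livers 1 to 5. Its brain libraries ran from 0.524 to 923, a range with no parallel in liver, and liver was 3.83 ± 0.74 higher on the log2 scale (adjusted p = 3.24e-05). Apolipoprotein E (Apoe) was at 9269 ± 939 in liver and 772 in brain, and liver was 3.62 ± 0.41 higher (adjusted p = 2.82e-09). Brain was thus the nearest tissue for Ttr and Apoe. For Tf, blood was about as near as brain, at a mean of 306 and a log2 fold change of 6.90 ± 0.40. Glia or the choroid plexus are also known to make Tf, Ttr and Apoe.

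All 15 carrier proteins tested were enriched (100% against 3.02% of all genes, and 14 with DESeq2, which did not call Serpina7), with a median smallest log2 fold change of 8.81 (7.80 with bounds). The members of this list and of the lists below were chosen with earlier results of these data known. Their shares beside those of all genes are thus descriptions and test nothing. The vitamin D carrier Gc was at 9105 ± 938 scaled CPM and the heme carrier Hpx at 6132 ± 1310, the latter 13.16 ± 0.49 above pancreas (adjusted p = 1.94e-19). Haptoglobin (Hp), which binds free hemoglobin, was at 5542, 11643, 7469, 9463 and 9231 scaled CPM. Blood was its nearest tissue at a mean of 38.9, and liver was 7.80 ± 0.43 higher (adjusted p = 3.73e-16). Liver 2 was the highest for Alb, Tf, Gc, Hp and Hpx alike.

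Of the 20 coagulation and fibrinolysis proteins, 19 were enriched and all 20 were higher than in all 6 tissues (median smallest log2 8.12). The 3 fibrinogen chains were the most abundant by counts, and each was highest in liver 2. Fgb was at 2684, 9081, 3329, 3348 and 2799 scaled CPM, so liver 2 stood far above the other 4. Fgg was 11.46 ± 0.70 above kidney (adjusted p = 9.63e-15) and plasminogen (Plg) 11.41 ± 0.57 above intestine (adjusted p = 1.63e-15). F5, a cofactor of thrombin formation, was the member that missed the rule: liver averaged 134 ± 40.0 and blood 48.8, a log2 fold change of 1.58 ± 0.51 (adjusted p = 0.00746).

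Complement and acute phase proteins gave 17 enriched of 18 tested (median smallest log2 6.48). C3, the central complement protein, was at 9004, 16331, 10867, 11964 and 12346 scaled CPM in livers 1 to 5 and at 84.8 in blood, the nearest tissue (7.10 ± 0.49, adjusted p = 6.07e-14). Crp stayed between 4878 and 6551 and was 12.55 ± 0.55 above pancreas. The inter-alpha-trypsin inhibitor chain Itih4 was at 12483 in liver 2 and 3673 to 5414 in the other 4. Counts elsewhere differed among the terminal complement genes. C9 had 7 counts and C8a 28 in all 30 other libraries, while C5 had 10278 and C6 1512. Lbp, which binds endotoxin, was under 4-fold above blood (1.75 ± 0.33, adjusted p = 2.5e-05). Liver 2 was the highest of the 5 for C3, Itih4, C9, C8a and Lbp, and not for Crp.

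Apolipoproteins and proteins of lipoprotein assembly split between liver and intestine, the other organ that secretes lipoproteins: 12 of 17 were enriched (median smallest log2 4.37). Apoc3, an inhibitor of triglyceride clearance, was at 2797 ± 413 scaled CPM and 4.91 ± 0.40 above intestine (adjusted p = 3.66e-11). Apoa2 had 139460 counts in liver and 2 in pancreas, its nearest tissue. Apob, the scaffold of VLDL and chylomicrons, was at 4211, 5377, 4656, 4252 and 2557 scaled CPM in liver and averaged 1336 in intestine (1.71 ± 0.40, adjusted p = 0.000612). Apoa1, the main protein of HDL, was at 1265, 4165, 577, 1660 and 848 in liver against a mean of 1935 in intestine, and the difference was not past the test (-0.43 ± 0.50, adjusted p = 0.467). Apoa4 did not differ past the test either (-0.83 ± 0.44, adjusted p = 0.106). Mttp, the lipid transfer protein that loads Apob, was lower in liver than in intestine (215 ± 46.3 against 1002, -2.23 ± 0.31, adjusted p = 1.44e-06). Apom was above kidney by 0.75 ± 0.27 (adjusted p = 0.0216).

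Bile acid genes gave 13 enriched of 17 (median smallest log2 3.70). The synthesis enzyme Akr1d1 was at 2003, 1634, 1969, 1615 and 1577 scaled CPM, with 4 counts in all 30 other libraries. Cyp7a1, the rate-limiting enzyme, was much lower and uneven, at 29.0, 6.05, 6.81, 33.2 and 61.4, with 1 count elsewhere. It was at least 7.31 higher on the log2 scale. It was not called enriched with DESeq2 (fitted log2 8.74), and the cause was not tested. Baat, which joins bile acids to taurine or glycine, was at 784 ± 166 and 7.24 ± 0.35 above kidney (adjusted p = 6.45e-17). The uptake carrier Slco1b2 had 1 count in blood, its nearest tissue, for a log2 ratio of 13.29 (95% counting interval 10.81 to 18.59), and the export pump Abcb11 was 8.90 ± 0.45 above kidney (adjusted p = 1.92e-16). The canalicular lipid exporters did not follow: Abcb4 did not differ from intestine past the test (0.16 ± 0.34, adjusted p = 0.711), and the sterol exporters Abcg5 and Abcg8 were lower than in intestine by -2.68 ± 0.50 and -4.67 ± 0.46. Cyp7b1, of the alternative pathway, averaged 3.78 in liver and 36.8 in pancreas (-3.35 ± 0.38, adjusted p = 2.15e-08).

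Cytochromes P450 that act on drugs and steroids gave 13 enriched of 15 (median smallest log2 11.94, 10.31 with bounds). Of these, Cyp2b2 and Cyp2c12 were not called with DESeq2. After Cyp2c7 the most abundant by counts was Cyp2c6v1, at 2500.4 to 3047 scaled CPM. Cyp2e1, which oxidizes ethanol, was at 2581, 1171, 3512, 1681 and 3650 and was 4.13 ± 0.34 above kidney (adjusted p = 6.07e-11). Livers 2 and 4 were the low ones. Cyp2c22 was 12.37 ± 0.56 above intestine. Cyp2c23 was shared with kidney (1152 ± 185 against 845, 0.57 ± 0.27, adjusted p = 0.0793), and Cyp3a18 was 1.09 ± 0.27 above intestine (adjusted p = 0.0018). Genes of this family are close copies of each other, so counts could be split among them, and values for single members are uncertain for that reason.

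Conjugating enzymes and solute carriers gave 11 enriched of 19 (median smallest log2 2.54). Ugt2b37, a glucuronosyltransferase, was at 3444 ± 510 scaled CPM and 5.97 ± 0.43 above intestine (adjusted p = 2.95e-11). Estrogen sulfotransferase Sult1e1 ran from 123 in liver 2 to 1450 in liver 3, with 1 count in the other 30 libraries. Adh1, alcohol dehydrogenase, was at 1260 ± 225 and 4.13 ± 0.61 above kidney (adjusted p = 1.86e-06). Slc27a2, a fatty acid carrier, was just under the fold threshold against kidney (1.96 ± 0.57, adjusted p = 0.00491) and just over it without rat 1 (2.16), rat 3 (2.05) or intestine 1 (2.01).

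Urea cycle genes were higher in liver than in all 6 tissues in 9 of 12 members, and 5 of 12 reached 4-fold (median smallest log2 1.58). Cps1, which takes up ammonia, was at 3056, 2404, 2506, 2215 and 2960 scaled CPM and 2.25 ± 0.42 above intestine (adjusted p = 6.15e-05). Ass1 was at 2430, 1292, 1964, 1956 and 2430, lowest in liver 2, and 1.90 ± 0.36 above kidney (adjusted p = 3.91e-05). Without rat 1 its log2 fold change was 2.05 and without rat 3 it was 2.02, past the fold threshold. Arg1, the last enzyme of the cycle, was 7.86 ± 0.37 above pancreas (adjusted p = 2.46e-17). The nearest tissue was thus intestine for Cps1, kidney for Ass1 and pancreas for Arg1.

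All 21 genes of amino acid breakdown were higher in liver than in all 6 tissues, against 7.08% of all genes, and 12 were enriched (median smallest log2 3.28). Tdo2, which opens the tryptophan ring, had 124491 counts in liver and 21 elsewhere. Bhmt, which turns betaine and homocysteine into methionine, was at 3306, 1500, 2883, 2432 and 3146 scaled CPM and 5.27 ± 0.42 above kidney (adjusted p = 2.02e-10). Hpd, of tyrosine breakdown, was 1.68 ± 0.32 above kidney (adjusted p = 8.07e-05). Liver 2 was the lowest of the 5 for Tat, Bhmt and Hpd, as it was for Ass1.

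Genes of glucose production and storage were enriched in 6 of 16 (median smallest log2 1.28). Pck1, the gate of gluconeogenesis, was at 2587, 1405, 2096, 3133 and 3457 scaled CPM in liver and averaged 2333 in kidney, the other gluconeogenic organ (0.10 ± 0.60, adjusted p = 0.924). Fbp1, another enzyme of gluconeogenesis, did not differ from kidney past the test (0.46 ± 0.31, adjusted p = 0.221). G6pc, which frees glucose from glucose 6-phosphate, was at 921, 410, 591, 1917 and 2184 and was 2.14 ± 0.54 above kidney (adjusted p = 0.00126), and without rat 5 it was 1.88. Genes of glycogen storage were mixed: glycogen synthase Gys2 was 6.39 ± 0.59 above pancreas and Ppp1r3b, a glycogen-targeting subunit, 5.27 ± 0.46 above blood. Pygl was 2.48 above blood, and for Ppp1r3c, which missed the rule, the smallest of the 6 log2 fold changes was -2.19.

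Fatty acid oxidation and ketone synthesis had 6 enriched of 20 and 14 higher than all 6 tissues (median smallest log2 1.48). Acox2, which shortens branched and bile acid side chains in peroxisomes, was 7.30 ± 0.41 above kidney (adjusted p = 4.03e-13), and Acsl1 2.65 ± 0.24 above muscle. Fabp1, the liver fatty acid binding protein, was at 2193 ± 744 against 3602 in intestine, a difference not past the test (-0.72 ± 0.33, adjusted p = 0.0668).

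Lipogenesis was enriched in 11 of 18 members (median smallest log2 2.19), at levels that differed between rats. Adipose tissue was not among the tissues compared. Scd, the desaturase, was at 9182, 5565, 3842, 5840 and 5482 scaled CPM and 4.58 ± 0.85 above muscle (adjusted p = 2.14e-05). Fasn, fatty acid synthase, was at 1973, 1859, 656, 1372 and 1898 and 3.26 ± 0.33 above brain (adjusted p = 2.92e-10). Thrsp was at 1792, 1689, 886, 1682 and 1747, and Acly, which supplies acetyl-CoA, at 1118, 1231, 404, 787 and 795. Liver 3 was the lowest for all 4. Acly was 2.12 ± 0.22 above pancreas (adjusted p = 6.13e-10), and its fold fell under 4-fold without rat 2 (1.91), with RLE factors (1.91), with DESeq2 (1.91) and in fits of only 2 tissues (1.93).

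Of 20 liver transcription factors and nuclear receptors 6 were enriched (30% against 3.02% of all genes). Their median smallest log2 fold change was 0.46, above the -1.85 of all genes tested and below the 8.81 of the carrier proteins. Hnf4a, the master regulator of hepatocytes, was at 451 ± 51.2 scaled CPM in liver and 336 in kidney (0.46 ± 0.26, adjusted p = 0.151). Creb3l3, an ER-bound factor of fasting genes, was at 322 ± 15.5 against 286 in intestine (0.18 ± 0.27, adjusted p = 0.592). Cebpa was 2.28 ± 0.29 above intestine (adjusted p = 6.74e-08) and Prox1 2.56 ± 0.33 above pancreas (adjusted p = 1.57e-07). Foxa1 was 3.14 ± 0.53 above intestine (adjusted p = 3.92e-05) and Onecut2 2.99 ± 0.60 (adjusted p = 0.000247), both at low mean levels of 9.80 and 5.28 scaled CPM. Nr1i2, the receptor that senses foreign compounds, was 2.10 ± 0.23 above intestine (adjusted p = 8.92e-09) and 1.97 without intestine 1.

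Hormones, growth factors and iron regulators were enriched in 16 of 23 (median smallest log2 3.11), and 17 were higher than in all 6 tissues at any fold. Among the rest, the smallest of the 6 log2 fold changes was -4.9 for Igfbp2 and -4.07 for the iron regulator Hjv. Hepcidin (Hamp), the iron hormone, was at 111, 128, 86.6, 132 and 148 scaled CPM, with 4 counts in the other 30 libraries (lower bound 9.46, largest adjusted p of the 6 = 1.15e-13). Tmprss6, the protease that restrains hepcidin, was at 446 ± 33.8 and 10.55 ± 0.48 above blood (adjusted p = 6.99e-18). Inhbe, an activin subunit, was 9.43 ± 0.45 above blood (adjusted p = 3.34e-16). Agt, the precursor of angiotensin, averaged 655 scaled CPM and was 3.11 ± 0.43 above brain (adjusted p = 1.71e-07), Igfbp4 3.36 ± 0.35 above kidney and the growth hormone receptor Ghr 2.41 ± 0.29 above muscle.

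Hepatocyte genes of the portal and the central zone were both found. Of 12 periportal genes 4 were enriched and of 12 perivenous genes 2, Cyp2e1 and Cyp1a2. Hal, of histidine breakdown, was at 256, 139, 165, 180 and 221 scaled CPM with 15 counts elsewhere. Glul, the glutamine synthetase of the central rim, was at 286 ± 94.0 in liver and at 6360 in blood on the scaled CPM scale (-4.49 ± 0.29, adjusted p = 1.83e-14).

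**Figure D2:**
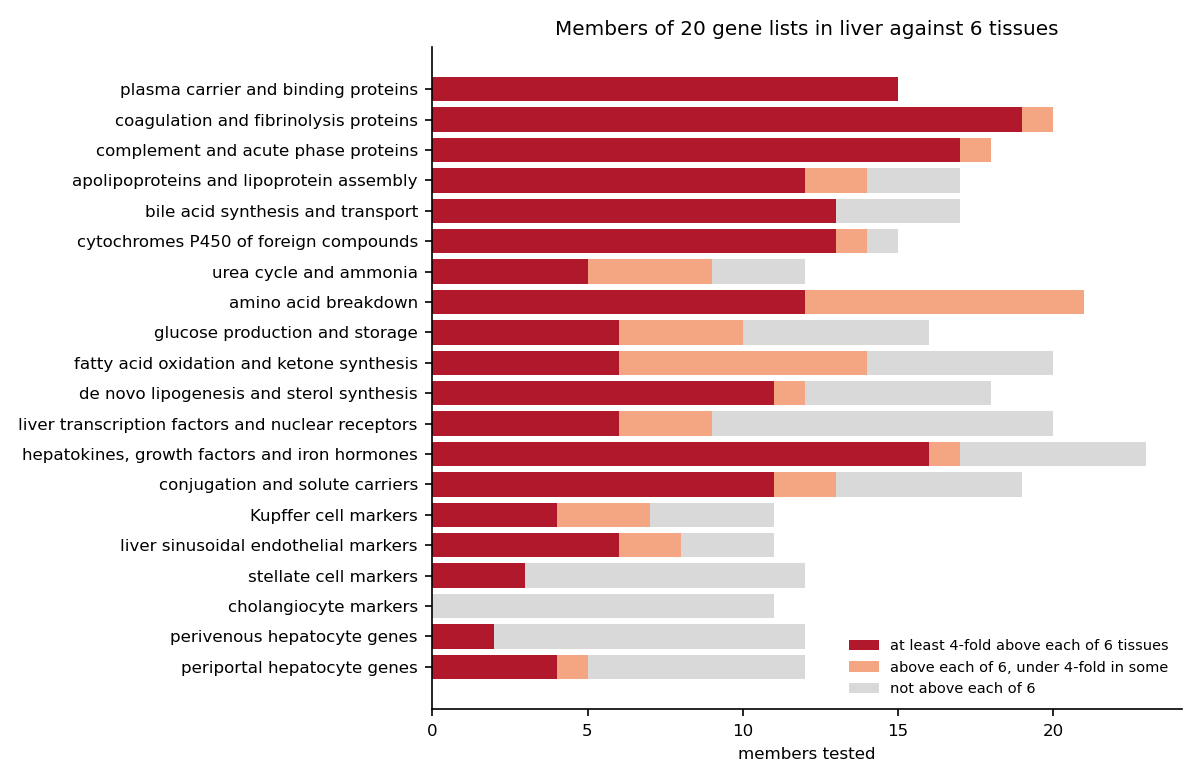
Members tested of each of 20 gene lists (bars, x axis, number of genes), split into those at least 4-fold above each of 6 tissues (red), those above each at under 4-fold in some (pink) and the rest (grey). All 15 carrier proteins are red and all 11 cholangiocyte markers grey.

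Markers of the other liver cells were counted as well. In bulk RNA, fewer cells of a type and less RNA per cell cannot be told apart. Kupffer cell markers were enriched in 4 of 11 (Clec4f, Marco, Vsig4 and Cd5l), and their summed level was 372 to 576 scaled CPM (median 478). Clec4f, a lectin receptor of Kupffer cells, was at 79.2, 129, 101, 144 and 163 and 4.55 ± 0.41 above blood (adjusted p = 1.29e-10). Of the other 7 members, Cd163 (1.11 ± 0.36 over pancreas), C1qa (0.95 ± 0.35 over muscle) and C1qb (0.91 ± 0.38 over muscle) were higher than in all 6 tissues at under 4-fold. C1qc did not differ from muscle past the test (0.73 ± 0.38, adjusted p = 0.0904), and Csf1r, Adgre1 and Cd68 were lower than in blood (-3.40 ± 0.38, -2.17 ± 0.31 and -2.21 ± 0.34). Sinusoidal endothelial markers were enriched in 6 of 11, with a summed level of 245 to 273. Stab2, their hyaluronan receptor, was at 23.2, 41.3, 33.7, 29.0 and 31.7 and 5.96 ± 0.44 above brain, Oit3 was at 13.0 to 14.1, and Clec4g had 1621 counts in liver and 0 elsewhere (at least 5.69 higher on the log2 scale). Among the endothelial markers that missed the rule, the smallest of the 6 log2 fold changes was -0.34 for Bmp2 and -0.01 for Stab1. It was 0.45 for Fcgr2b, 1.17 for Dnase1l3 and 1.6 for Lyve1. Marco (fitted log2 9.03), Vsig4 (7.54), Clec4g (7.2), the endothelial ligand Gdf2 (8.33) and the stellate marker Colec10 (3.86) were not called enriched with DESeq2, which left 2 of the 4 Kupffer cell markers. The cause was not tested.

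Stellate cell markers were enriched in 3 of 12 (Colec11, Colec10 and Ecm1), with a summed level of 190 to 310 scaled CPM against 3671 to 11146 in muscle, and the list's median smallest log2 fold change was -0.88. Des (-11.54), Col1a1 (-7.00), Dcn (-4.80) and Rgs5 (-2.35) were lower than in muscle, Ngfr (-3.79) than in blood and Pdgfrb (-1.37) than in kidney. Lrat, which esterifies retinol for storage, did not differ from intestine past the test (0.54 ± 0.65, adjusted p = 0.479), nor Reln from brain (-0.38 ± 0.31, adjusted p = 0.282) or Hand2 from intestine (0.06 ± 1.19, adjusted p = 0.983). Cholangiocyte markers were enriched in 0 of 11, with a summed level of 28.9 to 54.0 scaled CPM, and edgeR called none of them above all 6 tissues at any fold. Each of the 11 had a fitted level below that of at least 1 tissue, so the count is also 0 at unadjusted p under 0.05, and it was 0 with DESeq2. Aqp1, a water channel that red cells and vessels also carry, made up most of that sum at 29.7 ± 8.79, while Krt7 and Krt19 were at 0.220 ± 0.118 and 1.41 ± 1.03.

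RNA of the compared tissues was scarce in liver. Summed muscle markers were at 0.0514 to 0.307 scaled CPM, kidney markers at 0.734 to 1.84, pancreas markers at 2.83 to 8.45 and brain markers at 11.1 to 15.1. Intestine markers reached 27.2, of which Cdh17 gave 26.4 in liver 3. Blood cell markers summed to 219 to 560, nearly all Hba1 and Hbb, against 3077794 to 6586931 in blood. Among adipocyte markers Adipoq, Lep and Plin1 were at 0 in all 5 livers, and Cidec, a lipid droplet protein that fatty livers are known to make, was the 1 enriched member, at 68.7 to 96.2. Its log2 fold change over intestine was 2.00 ± 0.38 (adjusted p = 4.92e-05), and it fell under the threshold in 8 of 14 other settings, among them without rat 1 (1.86), without intestine 1 (1.77) and with RLE factors (1.95).

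The liver libraries were neither the most nor the least concentrated. The 10 most abundant genes took 28.8% ± 3.51 (SD, n = 5) of liver counts. Shares were 15.3% ± 2.4 in intestine, 9.98% ± 2.89 in brain, 64.0% ± 2.29 in pancreas and 90.4% ± 1.3 in blood. Each differed from liver (exact permutation test, two-sided, p = 0.00794, the smallest that 5 against 5 allows, adjusted p = 0.0119). The permutation tests here and below did not pair libraries by replicate number, unlike the fit, and no paired test was run. Muscle was at 33.2% ± 1.75 (difference -4.37 percentage points, exact permutation p = 0.0397, adjusted p = 0.0476), and kidney at 23.6% ± 11.0 (5.23, p = 0.357). The muscle call was lost on leaving out rat 1, 3, 4 or 5 (differences of -5.81 to -3.68 over the 5 rats left out in turn), and the kidney difference passed the test without rat 5 (9.86, exact permutation adjusted p = 0.0343). Genes at 1 CPM or more numbered 11152 ± 154 in liver, between blood with 6001 ± 911 and brain with 14047 ± 183. Muscle had 10965 ± 355 (exact permutation p = 0.349). Kidney, intestine, brain, pancreas and blood differed from liver at p = 0.00794 (exact permutation, adjusted p = 0.00952). With the 10 most abundant genes taken out of the CPM, the difference from pancreas turned from 1418.6 to -193 genes (exact permutation adjusted p = 0.486), and that from blood went from 5150 to 1013.

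**Figure D3:**
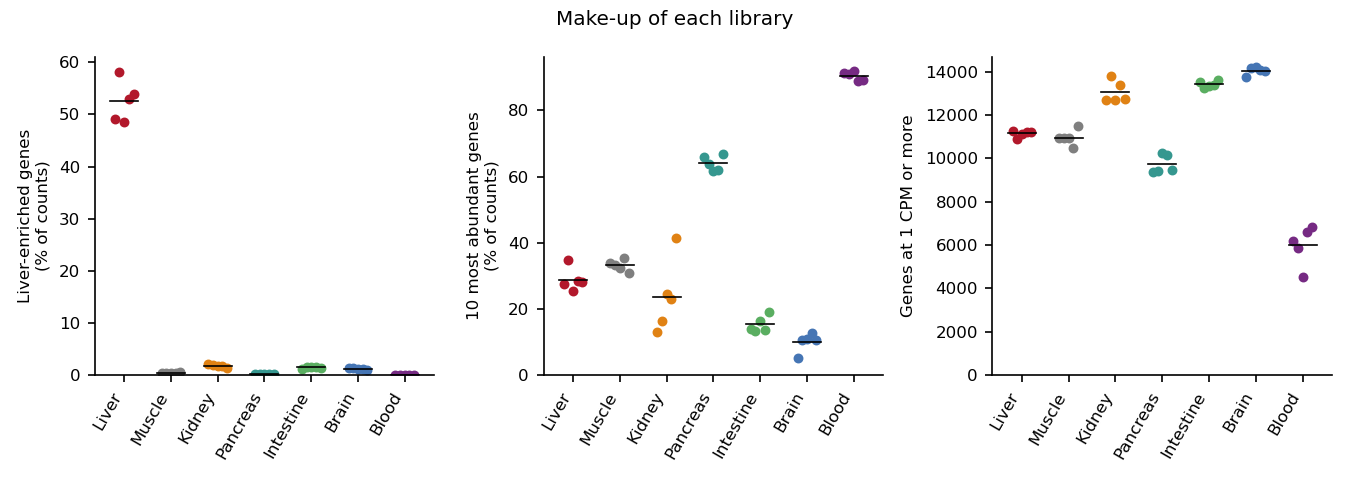
Share of counts in liver-enriched genes, share in the 10 most abundant genes of the library, and number of genes at 1 CPM or more (3 panels, y axis), by tissue, 5 libraries a tissue with a line at the mean. Enriched genes hold 48.5% to 58.1% of liver counts and at most 2.16% elsewhere.

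The 497 genes that were 4-fold above 5 of the 6 tissues show which organ liver shared its genes with. Kidney was the exception for 177 (1.07% of genes tested), intestine for 119 (0.721%), brain for 62 (0.375%), pancreas for 59 (0.357%), blood for 43 (0.26%) and muscle for 37 (0.224%). Those named here are among the most abundant in liver. With kidney they included Pck1, Ass1 and Hpd, and with intestine Apob, Fabp1, Apoa1 and Apoa4, described above. With muscle they included Phyh, of branched fatty acid oxidation (1036 against 324, 1.67 ± 0.20), Alas1, the first enzyme of heme synthesis (1.67 ± 0.30), Coq8a, of coenzyme Q synthesis (-0.94 ± 0.28, adjusted p = 0.00396), and carbonic anhydrase Car3. Car3 was at 172, 204, 967, 259 and 1004 in liver and averaged 348 in muscle (0.50 ± 0.60, adjusted p = 0.483), with livers 3 and 5 far above the rest. Leaving out rat 4 put Alas1 past the fold threshold (2.06).

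With pancreas, another secretory organ, liver shared Selenop, the selenium carrier (652 against 269, 1.28 ± 0.38, adjusted p = 0.0047), the ER translocon protein Tram1 (-0.82 ± 0.16, adjusted p = 4.72e-05), Cd164 and the amylase gene Amy1a. Amy1a was at 387, 389, 509, 345 and 280 scaled CPM in liver and averaged 138 in pancreas (1.72 ± 0.46, adjusted p = 0.00184, and 2.10 without rat 5). Amylase genes are near copies of each other, so this value is uncertain. With brain it shared the receptor Lrp1 (741 against 318, 1.19 ± 0.25), Atrn, Dpy19l3 and N-cadherin (Cdh2, 153 against 46.3, 1.72 ± 0.26). With blood it shared catalase (Cat, 2445 against 1133, 1.13 ± 0.26, adjusted p = 0.000339), fibronectin (Fn1, 1.54 ± 0.52, adjusted p = 0.0102), Gm2a and Tmem86b.

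Low genes were fewer and weaker. Of the 161 genes lower in liver than in each other tissue by 4-fold, 5 had a usable symbol and 5 CPM or more in all 6 tissues. Pkm, pyruvate kinase of muscle and most other tissues, was at 7.38, 9.17, 6.84, 8.22 and 9.12 scaled CPM in liver, from 59.7 in pancreas to 4692 in muscle. Liver uses the product of another gene, Pklr, named here after its values were seen, which was at 505 ± 73.8. The tetraspanin Cd9 was at 1.97, 2.51, 1.72, 1.36 and 1.98 against 16.7 to 88.5 elsewhere, and the actin-severing protein gelsolin (Gsn) at 4.56 to 10.5 against 49.2 to 1285. Agpat1, an enzyme of phospholipid synthesis, was at 2.95 to 4.10 against 25.6 to 98.2. Glutathione transferase Gstp1 was at 6.27 to 13.0 against 38.5 to 127, and its fold over brain, the nearest tissue, was at the threshold (-2.03), falling short of it without rat 1 (-1.98), rat 2 (-1.95), rat 3 (-1.94) or rat 4 (-1.93). Of the 161 low genes, 51 were also called in fits of only 2 tissues.

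Spread among the 5 livers was measured as the SD of log2(CPM + 1), before TMM scaling. It was taken over the 423 enriched genes with a usable symbol and at least 5 CPM in liver. The median SD was 0.31, and 24 of the 423 had an SD over 1. Mbl1, a mannose-binding lectin, was among the 3 with the smallest SD, at 181, 223, 186, 197 and 175 scaled CPM. Pnpla3 (ENSRNOG00000022268), a lipid droplet acyltransferase or lipase, had the largest SD by this measure, at 437, 592, 2.58, 360 and 114. Liver 3 was far below the others and within the range of other tissues, where kidney averaged 9.39 (5.04 ± 0.81, adjusted p = 3.68e-06). Ppp1r3g, a glycogen-targeting subunit, was at 17.2, 1.47, 0.334, 20.1 and 19.7, and livers 2 and 3 overlapped the other tissues too.

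Another set of variable genes went the opposite way in liver 3. Cyp2c11, the main P450 of adult male rat liver, was at 52.9, 28.3, 1474, 233 and 1167 scaled CPM, Mup4, a urinary protein, at 70.4, 6.42, 356, 182 and 297, and Acnat2, an acyl-CoA amino acid N-acyltransferase, at 4.55, 10.2, 113, 6.47 and 60.2. Acnat2 was not called enriched with DESeq2. Livers 3 and 5 were the highest for all 3 and livers 1 and 2 low. Sds, serine dehydratase, was at 94.1, 5.66, 6.00, 50.6 and 86.0, so livers 2 and 3 were the low ones. With 5 rats of 1 group these are descriptions of single animals, and no factor in the labels separates them.

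**Figure D4:**
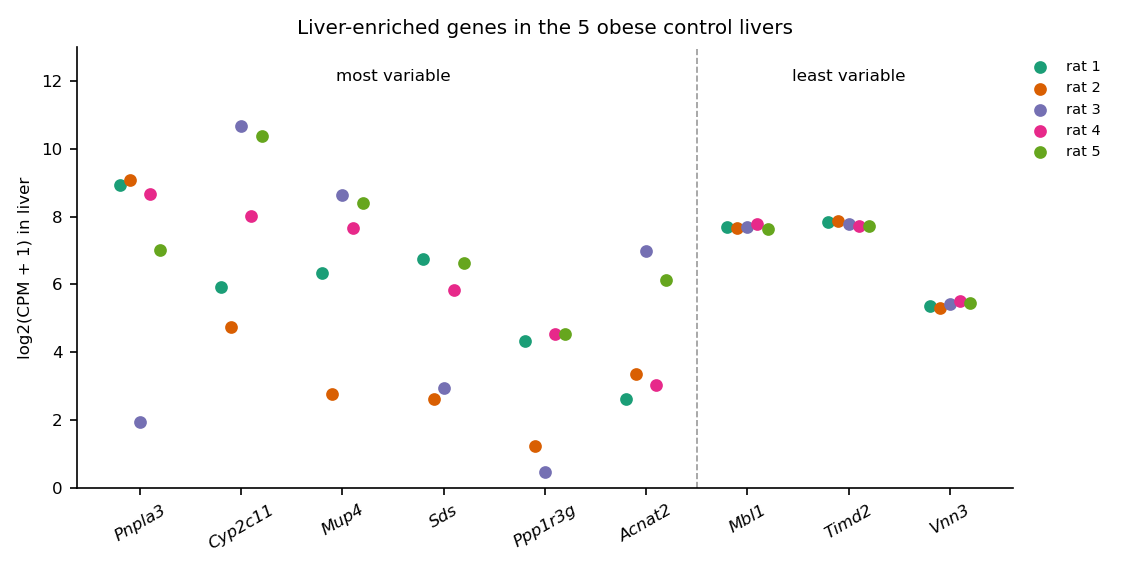
Level in liver, as log2 of CPM plus 1, of the 6 most and 3 least variable enriched genes (x axis) in each of 5 rats (colours). Rat 3 is lowest for Pnpla3 and highest for Cyp2c11, Mup4 and Acnat2, while the 5 rats nearly coincide for Mbl1.

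The rule was repeated in 2 cohorts that share no library with these controls. In obese ZDF rats given ultrasound for 7 weeks (35 libraries), 482 of 16362 genes (2.95%) were liver-enriched and 434 were shared, which is 87.1% of the controls' genes and 90% of the cohort's. In rats labelled DIO-stz, also controls and of both sexes (28 libraries), 442 of 16697 (2.65%) were enriched and 373 were shared, 74.9% of the controls' and 84.4% of the cohort's. Genes not tested in a cohort count here as not shared. Of the controls' 498 genes, 492 were tested in the ultrasound cohort and 469 in DIO-stz. At any fold, 487 and 424 were higher than in all 6 tissues, in the same order. Of the low genes 98 were shared with the ultrasound cohort (60.9% of the controls' and 61.2% of the cohort's) and 75 with the DIO-stz controls (46.6% and 54.7%). All enriched carrier, coagulation and complement genes of the controls were enriched in both cohorts, as were the 12 of amino acid breakdown and the Kupffer cell, stellate cell and zonal genes. Sinusoidal endothelial markers kept 6 of 6 in the ultrasound cohort and 4 of 6 in DIO-stz controls, without Clec4m and Gpr182.

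Lipogenesis kept the smallest share of its members in both cohorts among these lists: 5 of 11 in the ultrasound cohort and 2 of 11 in DIO-stz controls, Thrsp and Elovl5 being enriched in all 3. Pnpla3 had a smallest log2 fold change of 5.04 in these controls, 1.36 in the ultrasound cohort and -6.38 in DIO-stz controls, with kidney nearest each time. Glucose genes kept 5 of 6 and 3 of 6, and G6pc was lost in both. Transcription factors kept 5 of 6 and 2 of 6. Whether the cohorts differ in these genes was not tested.

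**Figure D5:**
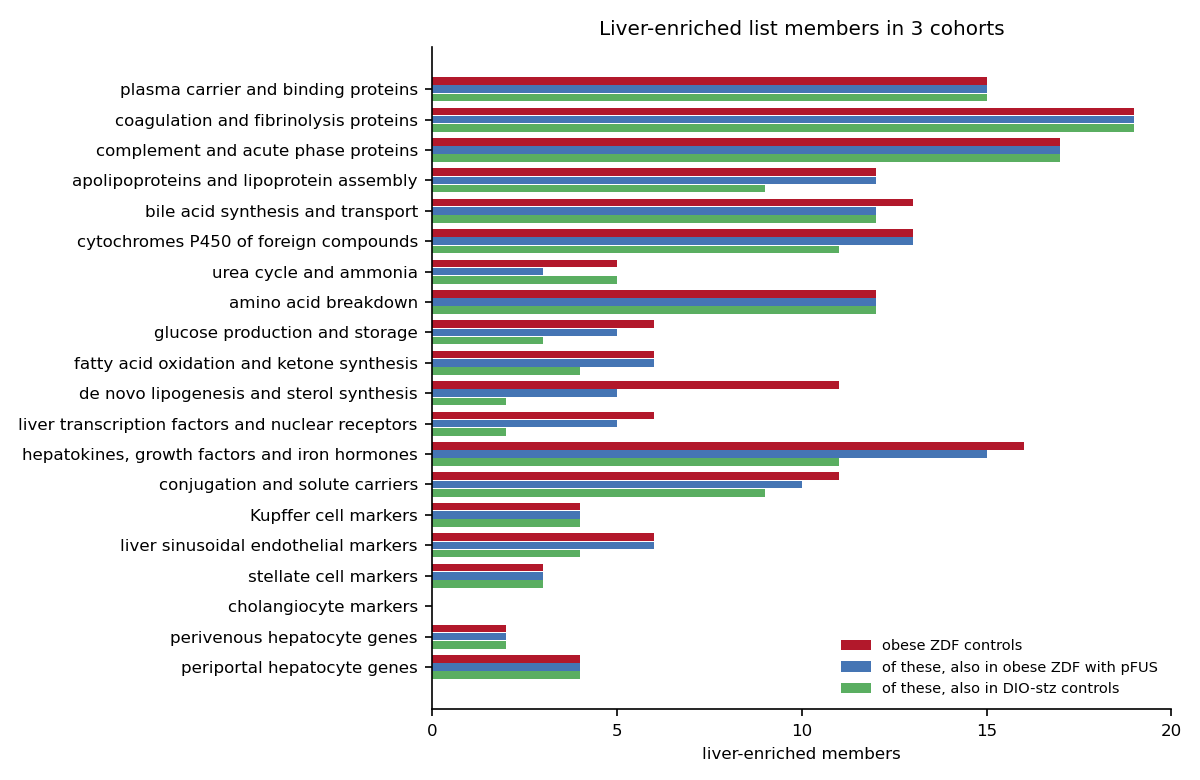
Number of liver-enriched members of each of 20 gene lists (x axis) in obese ZDF controls (red) and, of these, the number also enriched in obese ZDF rats with ultrasound (blue) and in DIO-stz controls (green). Bars are equal for carrier, coagulation and complement proteins, and lipogenesis goes from 11 to 5 and 2.

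Hsd3b5, Cyp2c11, Cyp2c13, Mup4 and Acnat2 were not tested in the DIO-stz cohort. In its 2 female control livers Hsd3b5 was at 0 CPM and in the 2 male ones at 658 and 1064, and Cyp2c11 was at 0.572 and 0.0577 in females and 1163 and 1787 in males. Cyp2c12, the female counterpart, was at 3391 and 2460 in females and 31.9 and 45.1 in males. The male obese controls had 51.8, 20.5, 28.8, 12.9 and 6.71 CPM of Cyp2c12 and 59.4, 25.7, 1637, 259 and 1323 CPM of Cyp2c11. Cyp2c11 was thus below both DIO-stz males in livers 1, 2 and 4, while Cyp2c12 was far below both females in all 5.

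Across the 50 liver libraries of the 12 other liver groups, the 498 genes took 36.3% to 55.2% of counts (median 44.6%) and Alb 6.33% to 21.1%. In the 232 libraries of other tissues they took at most 5.68%, above 5% in 1 library, and Alb at most 0.154%. The ranges of liver and non-liver libraries did not overlap for either share.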

How the data were processed

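The submitters' processing notes name STAR 2.5.3a, RSEM and the build Rnor_6.0. The deposited table holds the authors' expected counts, not normalized, for 32623 genes, of which 10453 were at 0 in all 35 libraries. They were rounded to whole numbers. No genome of that build was used here.

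Genes passing filterByExpr by tissue at a minimum count of 10 (16514) were fitted over all 35 libraries with edgeR 4.0.16 (quasi-likelihood test, TMM factors, tissue plus replicate number as a block) in R 4.3.3. P-values were Benjamini-Hochberg adjusted over all genes in each contrast, and every adjusted p in the text comes from this fit unless an exact permutation test is named. Liver-enriched means adjusted p under 0.05 and a log2 fold change of at least 2 against each of the 6 tissues. The SE is the log2 fold change divided by the root of F. Where a tissue had 0 counts, a lower bound uses a floor of 3 counts over its 5 libraries; intervals and floors cover counting error only. The script was tested on simulated data.

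Named genes are the 10 enriched genes with the largest fold over the nearest tissue, the 10 with the highest level, up to 8 low genes, 4 shared genes per tissue, the 6 most and 3 least variable, and up to 8 members per list; outside the lists they needed a usable symbol and at least 5 CPM. The members and the 27 lists were chosen with earlier results of these data known. Symbols without a match (22, among them Ahsg, Cyp3a2 and Mlxipl) were not analysed here. Deviations of log2(CPM + 1) from the tissue mean were correlated between libraries of different tissues. Same-numbered libraries correlated at a mean of 0.05 over 105 pairs of libraries (30 over 0.1). For different numbers the mean was -0.01, which is tied to the first value because deviations cancel out within a tissue. The labels do not say that replicates are separate animals; if they are not, p-values measure only the spread between samples. Other settings tried were RLE factors, DESeq2 1.42.0, no block, no filter, fits of 2 tissues, other fold thresholds, and leaving out each replicate, pancreas, intestine 1, or blood 5 with intestine 5. Thinning every library to the lowest total was chosen after seeing the data. Python 3.11.15 with scipy 1.17.1 gave the permutation tests, which did not use the replicate number. No 2 libraries of a tissue were identical (70 pairs). A few named genes are not reported here.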

Additional observations from a re-analysis of the deposited data

Results flagged for a closer look

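In 3 of 60 liver values examined, 1 of the 5 libraries lay farther from the rest than Dixon's 95% limit (0.71 of the range) allows on the scale of log2(CPM + 1), and chance alone gives about 1 in 20. Ass1, of the urea cycle, was at 1171.9 CPM in liver 2 and at 2175.6 to 2756.8 CPM in the other 4. Apob was at 2900.4 CPM in liver 5 and at 4729.5 to 5170.6 CPM in the others. Pnpla3 was at 2.87 CPM in liver 3 and at 129 to 537 CPM in the others. The gap was 0.723, 0.846 and 0.713 of the range for Ass1, Apob and Pnpla3. With TMM scaling it was 0.657, 0.671 and 0.679, under the limit for all 3, and on linear CPM Apob alone of the 3 passed it (0.806).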

How the results depend on the processing

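The 498 enriched genes numbered 438 with DESeq2, 472 with RLE factors, 549 with no filter, 468 after thinning to equal depth and 488 to 519 with each rat left out. All 438 of DESeq2 and all 472 of RLE were among the 498. With a log2 threshold of 1, 873 were enriched, 317 low and 840 shared with 1 tissue; with a threshold of 3, 339 were enriched and 57 low. Low genes numbered 261 with DESeq2 and 52 with fits of only 2 tissues, where 109 of the 161 had no test in some contrast because fewer genes passed the filter. Without a rat they numbered 135 to 152.

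Without the replicate block, 495 genes were enriched, 491 of them among the 498, and 160 were low. As a hint from the data, in 15 of 30 comparisons a liver library correlated best with the library of its own number. These correlations used deviations from the tissue mean, and 5 numbers would give 6 by chance.

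The share of the 10 most abundant genes, liver minus kidney, was 14.2 percentage points for 50 genes (exact permutation adjusted p = 0.0397) and 1.95 to 9.86 with each rat left out, past the threshold without rat 5. Liver minus muscle was -4.37 and ran from -5.81 to -3.68 with each rat left out. Genes at 1 CPM or more, liver minus pancreas, turned to -193 (exact permutation adjusted p = 0.486) once the 10 most abundant genes were taken out of the CPM. The cause was not tested.

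The median log2 fold change of all genes was 0.34 against blood with TMM factors, 0.18 with RLE factors and 0 with DESeq2. Against pancreas it was 0.03, -0.1 and -0.2 in the same order, and against brain -0.14, -0.25 and -0.25. Every liver library was deeper than every muscle, kidney, pancreas, intestine and brain library, which limits what could be detected there.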

Other observations

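Gene families by the start of their symbol showed where else enriched genes lay. Of 60 tested genes whose symbol starts with Cyp, 24 (40%) were enriched, against 2.99% of the 14501 genes with a usable symbol. The share was 57.7% of 26 Serpin genes (protease inhibitors and hormone carriers), 61.5% of 13 Apo genes and all 4 Itih genes. Among 346 Slc genes, the solute carriers, it was 4.91% (17 genes), with 7 low. These families were picked after their counts were seen, and close copies within them may share reads.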
